A study of Ovis aries with 27 samples.

Results

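The chaperone genes CRYAB, HSP90AA1, HSPA5 and PDIA4, were followed in the septum of the fetal sheep heart. The genes were chosen with earlier results of these data known, and their probes were picked by name. Every probe that the gene name, the RefSeq accession or the description column of the arrays assigned to 1 of the 4 genes was taken. This gave 5 of 15008 probes, 1 for each gene and a second for HSPA5. The data were 27 one-colour arrays, each with RNA of 1 fetus. Ewes had been infused continuously with cortisol, the main glucocorticoid of sheep, at 1 mg/kg/d or with vehicle, and the groups were cortisol at 140 d of gestation (n = 7), control at 140 d (n = 8), cortisol at 130 d (n = 6) and control at 130 d (n = 6). The 140 d fetuses were sampled at 139 to 144 d, near term, after about 25 d of infusion from about 115 d, and the 130 d fetuses at 129 to 131 d after about 10 d from about 120 d. A second label puts the start of infusion at about 115 d for every ewe. Each age was its own cohort with its own duration of infusion, so cohort and duration cannot be told apart from age. The 8 controls at 140 d came from 7 ewes, with the pair of twins not identified, and each fetus was taken as independent. The questions of the design are what raised maternal cortisol changes in the fetal heart at each age, and what changes towards term.

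Chaperones hold, fold or refold other proteins. CRYAB, alpha B-crystallin, is a small heat shock protein that does not need ATP, is abundant in heart and skeletal muscle, and binds desmin and other filaments of the contractile cell. HSP90AA1 is the inducible cytosolic HSP90, an ATP-driven chaperone that keeps client proteins, the glucocorticoid receptor among them, in a form able to bind their ligand. HSPA5, also called BiP, is the HSP70 of the endoplasmic reticulum and the sensor partner of the unfolded protein response, the program that raises folding capacity when secretory protein accumulates. PDIA4 is a disulfide isomerase of the same compartment, which forms and rearranges disulfide bonds in newly made secreted and membrane proteins.

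The probes are 60-base oligonucleotides, and their sequences are given because a level on these arrays is the level of whatever RNA binds them. They are printed as the scanner files hold them, 5′ to 3′. In the CRYAB probe the capitals mark a TAG stop codon at bases 43 to 45, in the frame that opens at the first base, so that this probe covers the end of the reading frame and 15 bases after it.
CRYAB A_70_P039526: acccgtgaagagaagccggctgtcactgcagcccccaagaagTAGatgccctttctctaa
HSP90AA1 A_70_P014626: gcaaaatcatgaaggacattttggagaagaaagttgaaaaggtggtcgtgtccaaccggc
HSPA5 A_70_P016526: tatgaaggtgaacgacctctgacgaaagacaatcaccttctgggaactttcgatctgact
HSPA5 A_70_P016527: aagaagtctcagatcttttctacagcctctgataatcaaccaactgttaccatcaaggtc
PDIA4 A_70_P059651: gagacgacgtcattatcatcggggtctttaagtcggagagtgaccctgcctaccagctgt
The HSPA5 probes differ in sequence, but how far apart they lie on the transcript was not tested. Agreement between them is therefore not taken as independent evidence. None of the 5 probes shared a run of 16 bases with any other probe on the array (0 probes), and their GC content was between 40.0% and 55.0%. The files give these probes no genome position. HSP90AB1, the constitutive HSP90, had no named probe, so binding of its RNA to the HSP90AA1 probe was not tested.

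All 5 probes were well above background on all 27 arrays, and no spot on any array was saturated. Values are log2 of the processed intensity minus the 75th percentile of the same array, so 0 is the brightness of the 75th percentile. Arrays at 140 d were dimmer before this scaling, with 75th percentiles of 884.7 ± 149.3 intensity units in cortisol fetuses (SD, n = 7) and 838.2 ± 59.6 in controls (SD, n = 8), against 1092.3 ± 76.6 (SD, n = 6) and 1159.0 ± 101.6 (SD, n = 6) at 130 d. The labelled tissue could be checked with 2 of 20 cardiomyocyte markers, myoglobin (MB) and the slow myosin heavy chain MYH7, whose mean lay between 4.67 and 5.57 on every array. The other markers of that list had no named probe. Differences were tested with limma over 12770 probes and a probe was taken to differ where its p, adjusted by the Benjamini-Hochberg method, was under 0.05. In tissue RNA fewer cells of a type and less RNA per cell cannot be told apart.

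CRYAB transcript was higher at 140 d than at 130 d in both arms. In cortisol fetuses the lowest, median and highest CRYAB values were 6.08, 6.98 and 7.32 at 140 d (n = 7), against 6.21, 6.23 and 6.49 at 130 d (n = 6). Of the 7 arrays, 5 lay above every 130 d array of that arm and 1, replicate 4, lay below all of them; 1.52% of the tested probes separated upwards without overlap in this arm. In controls they were 6.89, 6.95 and 7.18 at 140 d (n = 8), against 5.94, 6.27 and 6.46 at 130 d (n = 6). All 8 control arrays at 140 d were above all 6 at 130 d, a separation upwards that 3.52% of the tested probes showed. The rise was 0.53 ± 0.14 on the log2 scale in cortisol fetuses (SE, adjusted p = 0.0147), or 1.45-fold (95% confidence interval 1.18 to 1.77), and 0.77 ± 0.14 in controls (SE, adjusted p = 0.000694), or 1.7-fold (1.4 to 2.08). With the slide as a fixed block it was 0.56 (adjusted p = 0.0194) and 0.79 (adjusted p = 0.00186), and the call in cortisol fetuses was lost with quantile normalization (adjusted p = 0.0618) and with only those 2 groups in the fit (adjusted p = 0.0673).

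**Figure D1:**
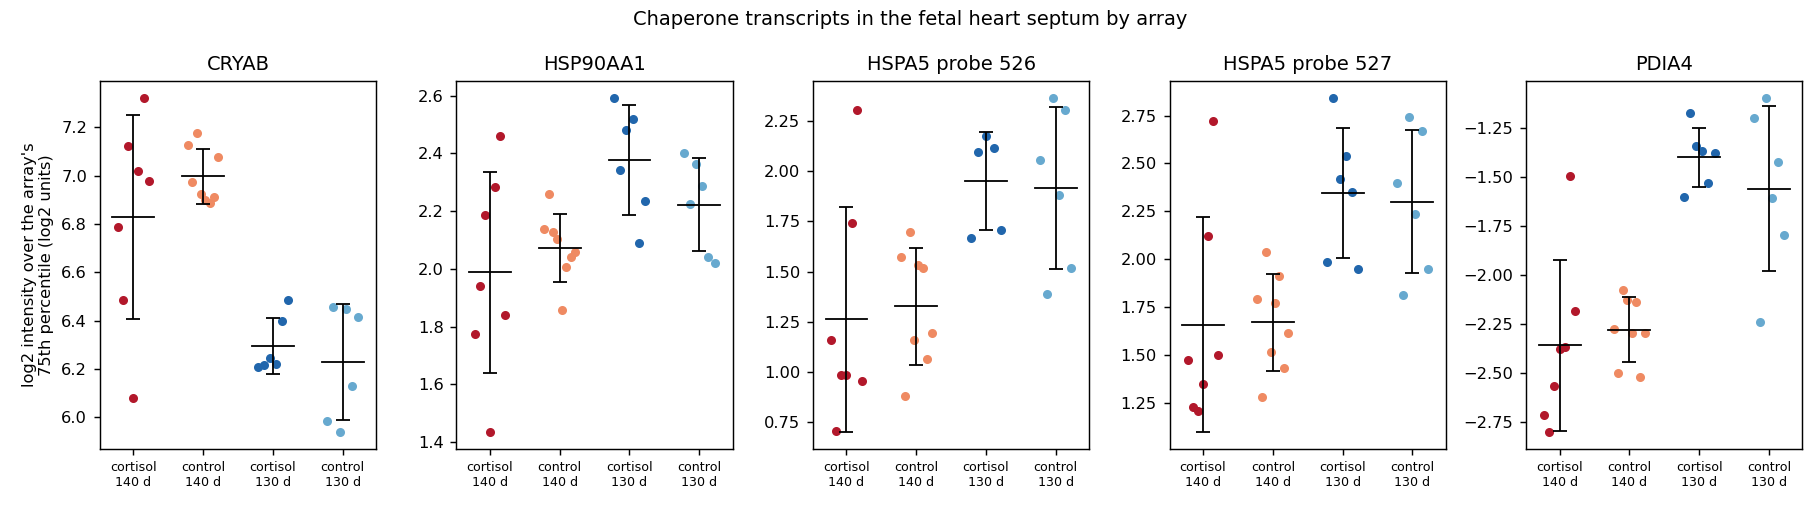
Log2 intensity over the array's 75th percentile for the 5 probes, 1 point per array, in cortisol 140 d (n = 7), control 140 d (n = 8), cortisol 130 d (n = 6) and control 130 d (n = 6); bars are the mean ± SD. CRYAB sits higher at 140 d, HSPA5 and PDIA4 sit lower, and 1 cortisol 140 d array lies well above the others of its group for HSPA5 and PDIA4 (2.31, 2.72 and -1.50).

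HSPA5, the general chaperone of the endoplasmic reticulum, was lower at 140 d in both arms by both of its probes. Probe A_70_P016527 read 1.21, 1.48 and 2.72 (lowest, median, highest) in cortisol fetuses at 140 d (n = 7), against 1.95, 2.38 and 2.84 at 130 d (n = 6). In controls it read 1.28, 1.69 and 2.04 at 140 d (n = 8), against 1.81, 2.32 and 2.74 at 130 d (n = 6). The groups overlapped: 5 of 7 cortisol arrays and 6 of 8 control arrays at 140 d were below every 130 d array of their arm, and 3.19% and 2.21% of the tested probes lay wholly below in those arms. Probe A_70_P016526 read 0.70, 0.98 and 2.31 in cortisol fetuses at 140 d, against 1.67, 2.10 and 2.18 at 130 d, where 1 of 6 arrays was left out because its spot carried an outlier flag. In controls it read 0.88, 1.36 and 1.70 at 140 d, against 1.39, 1.97 and 2.37 at 130 d. The same array, replicate 6 of the cortisol fetuses at 140 d, was the highest of its group on both probes, and the probes agreed closely over 26 arrays (Pearson r of values 0.99).

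The fall of HSPA5 was close to the threshold. In cortisol fetuses it was -0.69 ± 0.21 for A_70_P016527 (SE, adjusted p = 0.0318) and -0.69 ± 0.23 for A_70_P016526 (SE, adjusted p = 0.0432), about 0.62-fold. In controls it was -0.63 ± 0.21 (SE, adjusted p = 0.0339) and -0.59 ± 0.21 (SE, adjusted p = 0.0483), or 0.645-fold and 0.663-fold. The mean of both probes was taken without cortisol 130 d replicate 2, the array with the flagged spot, which left 5 arrays in that group. That array was the highest of its group by A_70_P016527 (2.84). The mean changed by -0.64 ± 0.22 in cortisol fetuses, which missed the threshold (SE, adjusted p = 0.0555), and by -0.61 ± 0.20 in controls (SE, adjusted p = 0.038). With the slide as a fixed block both probes missed it, at -0.62 (adjusted p = 0.0678) and -0.55 (adjusted p = 0.0913) in cortisol fetuses and -0.58 (adjusted p = 0.0746) and -0.48 (adjusted p = 0.111) in controls. With the slide as a random block both passed, at adjusted p = 0.0295 and 0.0428 in cortisol fetuses and 0.0339 and 0.0481 in controls, while shifting each array to its median ended the calls.

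PDIA4, the disulfide isomerase, showed the largest age difference of the 5 probes in cortisol fetuses and the largest fall in controls. Its values were -2.80, -2.38 and -1.50 in cortisol fetuses at 140 d (n = 7), against -1.60, -1.37 and -1.17 at 130 d (n = 6). Of the 7 arrays, 6 were below every 130 d array, and the other, replicate 6, lay among them. In controls they were -2.52, -2.29 and -2.08 at 140 d (n = 8), against -2.24, -1.51 and -1.09 at 130 d (n = 6). Of the 8 control arrays, 5 were below all 130 d arrays, and all 8 were below the 130 d mean. Among the 130 d controls, replicate 2 had the lowest PDIA4 and HSPA5 with the highest CRYAB, and replicate 3 the highest PDIA4 and HSPA5 with the lowest CRYAB. This did not hold in every group: among the 140 d controls replicate 3 was the highest for PDIA4, HSPA5 and CRYAB alike. Over the deviations of 27 arrays from their group means, CRYAB had r = 0.08 with PDIA4 and 0.19 with HSPA5. The fall was -0.96 ± 0.17 in cortisol fetuses (SE, adjusted p = 0.000953), or 0.513-fold (95% confidence interval 0.4 to 0.658), and -0.72 ± 0.17 in controls (SE, adjusted p = 0.00497), or 0.607-fold (0.477 to 0.772). It held with the slide as a fixed block, at -0.88 (adjusted p = 0.00281) and -0.70 (adjusted p = 0.0101), and the call in controls was lost with normexp background correction (-0.51, adjusted p = 0.121).

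HSP90AA1, the cytosolic chaperone, moved least. Its values were 1.44, 1.94 and 2.46 in cortisol fetuses at 140 d (n = 7), against 2.09, 2.41 and 2.59 at 130 d (n = 6). In controls they were 1.86, 2.08 and 2.26 at 140 d (n = 8), against 2.02, 2.26 and 2.40 at 130 d (n = 6). The groups overlapped in both arms, with 4 of 7 cortisol arrays and 2 of 8 control arrays at 140 d below all 130 d arrays. The difference was -0.39 ± 0.13 in cortisol fetuses, which passed the test (SE, adjusted p = 0.0403), and -0.15 ± 0.12 in controls, which did not (SE, adjusted p = 0.414, 95% confidence interval -0.40 to 0.10). The age difference was not shown to differ between the arms (difference -0.24 ± 0.18, SE, adjusted p = 0.97). The call in cortisol fetuses was lost with the slide as a fixed block (-0.35, adjusted p = 0.0743) and in 8 of 13 fits with 1 array left out, and kept with the slide as a random block (-0.39, adjusted p = 0.0353).

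**Figure D2:**
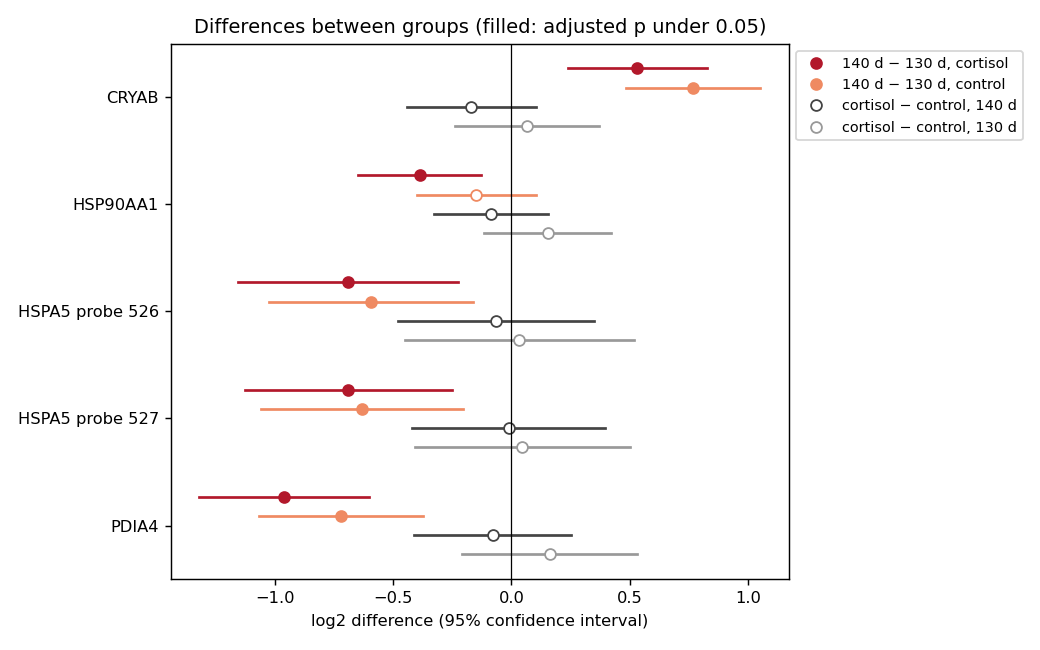
Log2 differences with 95% confidence intervals for the 5 probes: 140 d minus 130 d in cortisol fetuses and in controls, and cortisol minus control at 140 d and at 130 d; filled points have an adjusted p under 0.05. CRYAB lies right of 0 and HSPA5 and PDIA4 left of it for age (PDIA4 -0.96 in cortisol fetuses and -0.72 in controls), and every cortisol interval includes 0.

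Counted over probes, 5 of 5 passed the age test in cortisol fetuses, 1 higher and 4 lower, where 13.4% of all tested probes passed (4.81% higher, 8.57% lower). In controls 4 of 5 passed, 1 higher and 3 lower, where 19.1% of all tested probes passed (9.76% higher, 9.37% lower). The genes were chosen with earlier results of these data known, and 2 of the 5 probes read HSPA5. The counts are therefore no test of the set against all probes. With the slide as a fixed block, 2 of 5 passed in each arm, CRYAB and PDIA4, and with the slide as a random block 5 of 5 passed in cortisol fetuses and 4 of 5 in controls. The arrays lay on 5 slides, of which slides 2, 3 and 4 held both ages of both arms, with 1 array per arm at 140 d on slide 4. In controls every probe kept its direction within each of these slides, with CRYAB between 0.63 and 0.86 and PDIA4 between -0.76 and -0.67. In cortisol fetuses CRYAB was 0.59, 0.32 and 0.88 within slides 2, 3 and 4, and PDIA4 was -1.3, -1.02 and -0.043. HSPA5 and HSP90AA1 turned to a positive difference within slide 4, where replicate 6 was the cortisol array at 140 d (HSP90AA1 0.30, HSPA5 0.57 and 0.39). Within slides 2 and 3, with 2 arrays per group, 0 of 5 probes passed limma's test in either arm. Hardly any probe of the array passed there, 1 and 0 in cortisol fetuses and 3 and 5 in controls.

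**Figure D3:**
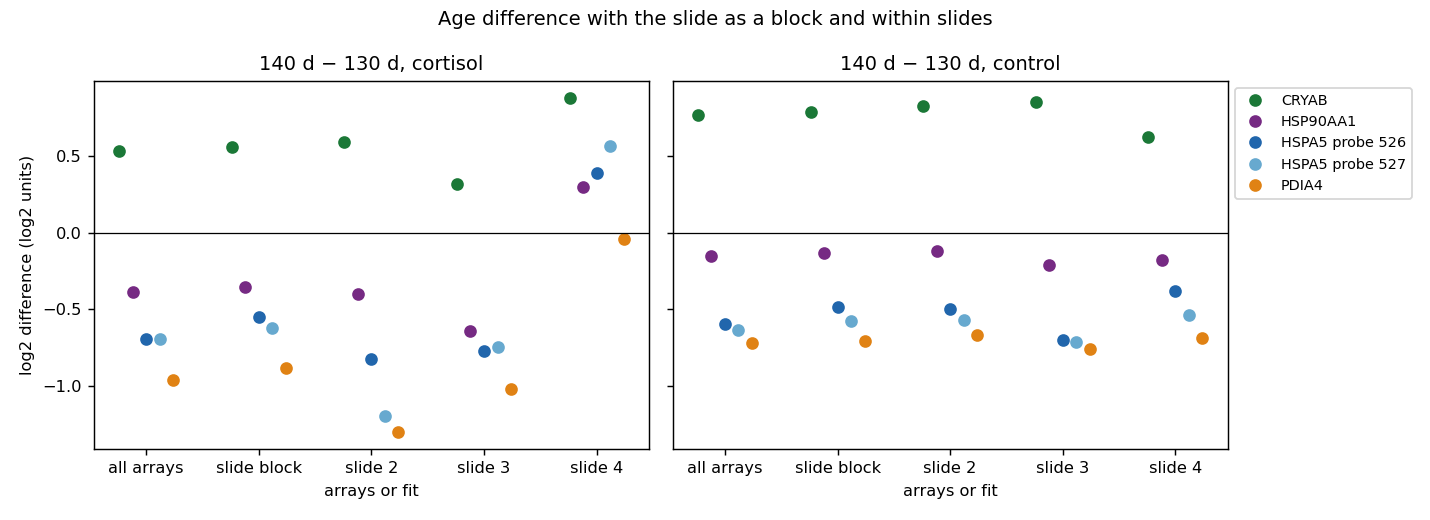
Log2 difference of 140 d minus 130 d for each probe, in cortisol fetuses and in controls, from all arrays, with the slide as a fixed block, and within slides 2, 3 and 4. In controls CRYAB stays between 0.63 and 0.86 and the other probes stay below 0; in cortisol fetuses slide 4, with 1 array at 140 d, lifts HSPA5 and HSP90AA1 above 0.

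Set against the 3 folding chaperones on the same array, CRYAB gained in both arms. Such a ratio is free of any single scaling constant per array, though not of other normalizations: the change of the CRYAB to PDIA4 log2 ratio was 1.49 in cortisol fetuses and 1.49 in controls, and 1.24 and 1.24 with quantile normalization. A log2 ratio between probes of different binding strength has no meaning as a level, so only its change between groups is read, with no test. In cortisol fetuses the CRYAB to PDIA4 log2 ratio was 8.46, 9.29 and 9.69 (lowest, median, highest) at 140 d, against 7.39, 7.70 and 7.92 at 130 d, a 2.82-fold change. In controls it was 9.03, 9.31 and 9.48 at 140 d, against 7.03, 7.80 and 8.70 at 130 d, a 2.81-fold change. The 140 d and 130 d arrays did not overlap in either arm.

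The ratio to HSPA5 changed 2.33-fold and 2.31-fold by its probes in cortisol fetuses and 2.64-fold and 2.57-fold in controls. The ratio to HSP90AA1 changed 1.89-fold in cortisol fetuses and 1.89-fold in controls. None of these groups overlapped. CRYAB itself rose, so its ratio to many probes rose too: the ratio of CRYAB to a probe separated upwards without overlap for 10.3% of all other tested probes in cortisol fetuses and for 44.0% in controls, with median log2 changes of 0.58 and 0.78. The changes for the folding chaperones were above those medians, at 0.92 (HSP90AA1) to 1.49 (PDIA4) in each arm. Each is the change of CRYAB minus that of the partner, so it only restates that the partner's own change lay below the median. For HSP90AA1 in controls that own change was at the 33.7 percentile of all tested probes and did not pass. Within slides the ratio to each partner was higher at 140 d in both arms, by 0.31 (HSPA5, slide 4, cortisol fetuses) to 1.89 (PDIA4, slide 2, cortisol fetuses) on the log2 scale.

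**Figure D4:**
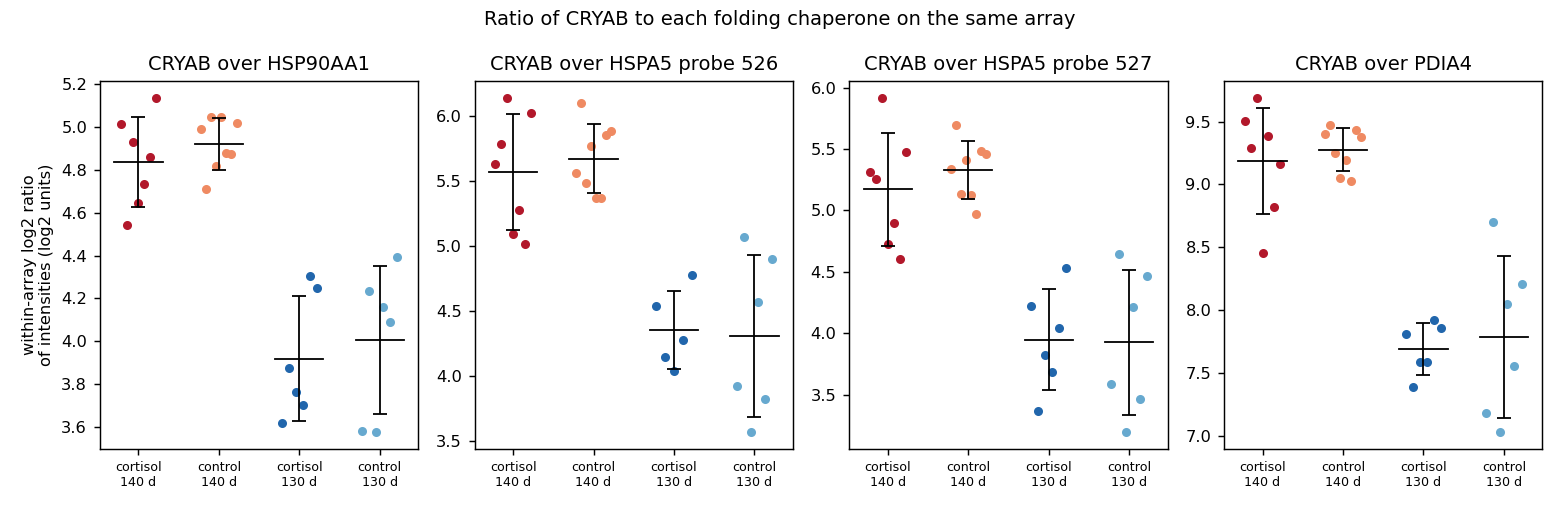
Within-array log2 ratio of the CRYAB intensity to HSP90AA1, the HSPA5 probes and PDIA4, 1 point per array in the 4 groups; bars are the mean ± SD. In every panel the 140 d arrays of an arm lie above its 130 d arrays, and cortisol and control arrays of the same age overlap.

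Cortisol was not associated with a detectable difference in any of the 4 genes. At 140 d 0 of 5 probes passed limma's test, nor did any at an unadjusted p under 0.05 (0 of 5), and 0.0% of all tested probes did (734 of 12770 had an unadjusted p under 0.05, and the smallest adjusted p was 0.477). The differences of cortisol from control at 140 d were -0.17 ± 0.13 for CRYAB (SE, 95% confidence interval -0.44 to 0.10), -0.085 ± 0.12 for HSP90AA1 (-0.33 to 0.16), -0.012 ± 0.20 and -0.065 ± 0.20 for HSPA5 (-0.42 to 0.40 and -0.48 to 0.35) and -0.079 ± 0.16 for PDIA4 (-0.41 to 0.25). As fold changes, the bounds of these intervals ran from 0.718 to 1.32, both for HSPA5. All groups overlapped, and 0.0% of the tested probes lay wholly higher and 0.0157% wholly lower in cortisol fetuses. At 130 d 0 of 5 probes passed, adjusted or not, and again 0.0% of all tested probes did (456 unadjusted, smallest adjusted p 0.587). The differences there were 0.067 ± 0.15 for CRYAB (-0.24 to 0.37), 0.15 ± 0.13 for HSP90AA1 (-0.12 to 0.42), 0.046 ± 0.22 and 0.034 ± 0.23 for HSPA5 (-0.41 to 0.50 and -0.45 to 0.52) and 0.16 ± 0.18 for PDIA4 (-0.21 to 0.53). For HSP90AA1 5 of 6 cortisol arrays and for PDIA4 5 of 6 were above the control mean at that age, and all groups overlapped (0.384% of the tested probes lay wholly higher and 0.0705% wholly lower).

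The cortisol effect was not shown to differ between 140 d and 130 d for any member (0 of 5 probes, adjusted or not, 0.0% of all tested probes, 746 unadjusted, smallest adjusted p 0.198). The ratios of CRYAB to its partners differed by -0.16 to -0.085 on the log2 scale between cortisol and control at 140 d and by -0.095 to 0.049 at 130 d, with overlapping groups throughout (upward separation of the ratio in 0.0% and 0.0235% of probes). Several of these small differences changed sign with the processing.

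Probe by probe, the order of the group means was the same for HSPA5, PDIA4 and HSP90AA1. The mean of both HSPA5 probes, which lacked the cortisol 130 d array with the flagged spot, put cortisol at -0.01 against control at 130 d. From high to low, PDIA4 averaged -1.40 ± 0.15 in cortisol 130 d, -1.56 ± 0.42 in control 130 d, -2.28 ± 0.17 in control 140 d and -2.36 ± 0.44 in cortisol 140 d (SD). HSPA5 probe A_70_P016527 averaged 2.35 ± 0.34, 2.30 ± 0.38, 1.67 ± 0.26 and 1.66 ± 0.56 in that order. Neighbours of one age did not differ beyond their spread, and the step between the control groups was the one that passed the test. For CRYAB the order ran from 7.00 ± 0.11 in control 140 d through 6.83 ± 0.42 in cortisol 140 d and 6.30 ± 0.12 in cortisol 130 d to 6.23 ± 0.24 in control 130 d, with the step between the cortisol groups passing. For HSP90AA1 it ran from 2.38 ± 0.19 in cortisol 130 d through 2.22 ± 0.16 in control 130 d and 2.07 ± 0.12 in control 140 d to 1.99 ± 0.35 in cortisol 140 d, and no neighbours differed by the test. CRYAB was among the brightest probes of the array, at the 99.1 percentile of mean intensity, with HSP90AA1 at 88.7, HSPA5 at 87.7 and 85.0 and PDIA4 at 47.2.

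Cortisol arrays at 140 d spread more than controls of that age for all 5 probes. The SD of CRYAB was 0.42 in cortisol fetuses against 0.11 in controls, a ratio of 3.73, where the median ratio over all tested probes was 1.18. For HSP90AA1 the ratio was 2.96, for PDIA4 2.64 and for the HSPA5 probes 2.20 and 1.93. Without replicate 6 of the cortisol fetuses the ratio was 1.42 for PDIA4 and 1.32 and 1.21 for HSPA5, where the median over all tested probes was 1.17, and 3.49 for CRYAB and 2.60 for HSP90AA1. Without replicate 4 it was 2.54 for CRYAB, 2.31 for HSP90AA1, 2.89 for PDIA4 and 2.34 and 2.07 for HSPA5, where the median over all tested probes was 0.93. With all arrays these ratios lay between the 82.7 and 98.6 percentiles of all tested probes, and no test was made of them. Replicate 6 was the highest cortisol array at 140 d for every one of the 5 probes, and replicate 4 the lowest for CRYAB (6.08) and HSP90AA1 (1.44). Replicate 4 also had the dimmest array (75th percentile 601.9), the lowest mean of the 2 cardiomyocyte markers in its group (4.75), and the highest means of 5 fibroblast markers (2.06) and 5 immune markers (-1.65); their part in its values was not tested. Replicate 6 had the highest mean of its group over 4 other measured cytosolic chaperones (2.50, against 2.14 for the next). Without replicate 4 the CRYAB rise in cortisol fetuses was 0.66, and without replicate 6 it was 0.45.

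HSPA5 and PDIA4 also varied together between fetuses of one group. Over the deviations of 27 arrays from their group means, Pearson's r was 0.81 (permutation p = 1e-05, the smallest 100000 permutations can give, adjusted 6e-05 over 6 pairs of genes) and Spearman's rho 0.76 (permutation p = 3e-05, adjusted 0.00018). Without the 2 arrays farthest from the median r was 0.71, and within slides 2, 3 and 4 it was 0.83, 0.48 and 0.90. The other 5 pairs did not pass. CRYAB and PDIA4 had r = 0.08 and CRYAB and HSPA5 r = 0.19 (adjusted permutation p = 0.791 and 0.618). CRYAB and HSP90AA1 had r = 0.48 (adjusted permutation p = 0.264), which was -0.03 without the 2 farthest arrays. HSP90AA1 had r = 0.39 with HSPA5 and 0.34 with PDIA4 (adjusted permutation p = 0.278 and 0.279).

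**Figure D5:**
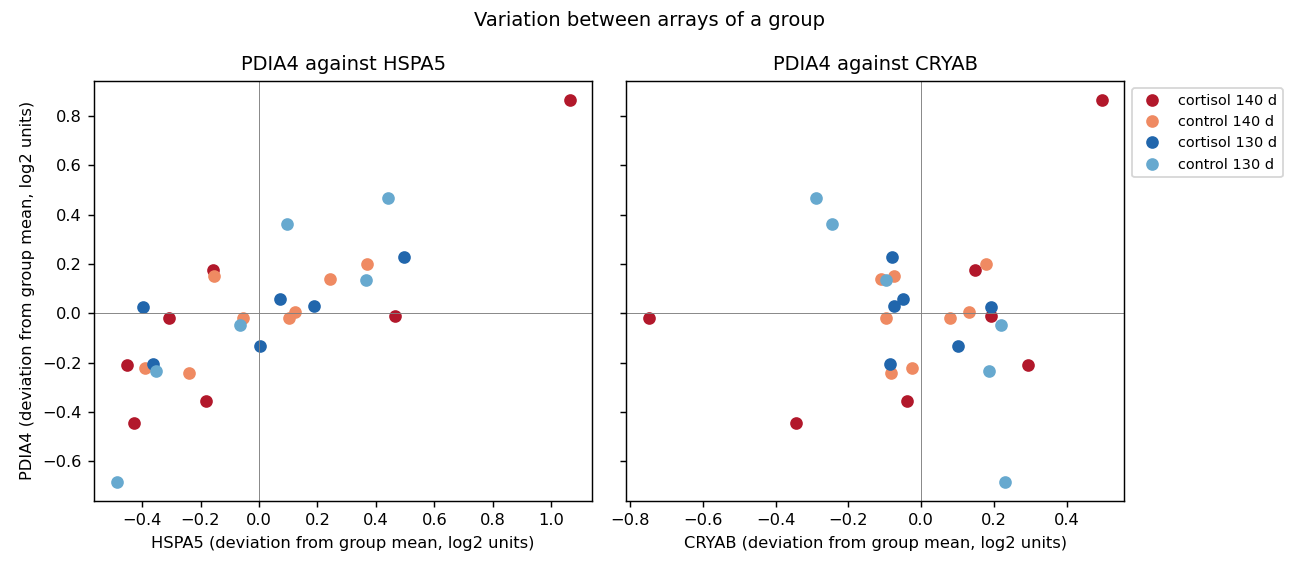
Deviation of PDIA4 from its group mean against that of HSPA5 (left) and of CRYAB (right), 1 point per array, 27 arrays, in log2 units. PDIA4 rises with HSPA5 (r = 0.81) and shows no such relation with CRYAB (r = 0.08).

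Of 40 other genes of endoplasmic reticulum folding and stress, 8 had a named probe: PDIA5, ERP29, PPIB, DERL1, XBP1, ATF4, ATF6 and DDIT3. In cortisol fetuses 1 rose and 1 fell with age, where 4.81% of all tested probes passed as higher and 8.57% as lower. In controls 2 rose and 3 fell, where 9.76% passed as higher and 9.37% as lower. The list was chosen with earlier results known, so these counts are no test of it. The median change over the 8 was 0.018 in cortisol fetuses and 0.057 in controls, where the median of all tested probes was -0.046 and -0.007. XBP1, the transcription factor that the unfolded protein response activates by splicing and that drives folding genes, fell by 0.75 ± 0.16 in cortisol fetuses (SE, adjusted p = 0.0026) and by 0.67 ± 0.15 in controls (SE, adjusted p = 0.00413). Its values were 0.91, 1.23 and 2.00 in cortisol fetuses at 140 d, against 1.87, 2.04 and 2.19 at 130 d, and 1.03, 1.21 and 1.84 in controls at 140 d, against 1.58, 1.87 and 2.38 at 130 d. The groups overlapped, since the highest 140 d array of each arm reached the 130 d range. A second XBP1 probe also passed in both arms (-0.69 and -0.63).

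DERL1, which helps misfolded proteins leave the endoplasmic reticulum for degradation, rose by 0.61 ± 0.12 in cortisol fetuses (SE, adjusted p = 0.00233) and by 0.44 ± 0.12 in controls (SE, adjusted p = 0.0123). In controls PDIA5, another disulfide isomerase, fell by 0.45 ± 0.13 (SE, adjusted p = 0.0179), and PPIB, the cyclophilin of the endoplasmic reticulum, fell by 0.29 ± 0.09 (SE, adjusted p = 0.0275). ATF6, a membrane-bound sensor of the unfolded protein response, rose by 0.64 ± 0.21 in controls (SE, adjusted p = 0.033). In cortisol fetuses the changes of these 3 genes were -0.17, -0.20 and 0.40 and did not pass. The PPIB call was lost with normexp, a shift to the array median, the authors' deposited table and in 4 of 14 fits with 1 array left out (highest adjusted p = 0.0622), and a second PPIB probe did not pass (-0.30, adjusted p = 0.0587). The PDIA5 call was lost with normexp (-0.33, adjusted p = 0.202) and in 1 of these 14 fits. The ATF6 call was lost in 6 of 14 fits with 1 array left out and with the slide as a fixed block (0.56, adjusted p = 0.0687).

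Of 52 other heat shock and cytosolic chaperone genes, 4 had a named probe, HSPA1A, CRYAA, DNAJA1 and TCP1, and 0 of the 4 passed limma's test in any comparison. At an unadjusted p under 0.05 1 of 4, DNAJA1, was lower at 140 d (-0.28 ± 0.13 in cortisol fetuses and -0.28 ± 0.13 in controls, SE, adjusted p = 0.153 and 0.112). So was a second CRYAA probe in controls (-0.32 ± 0.16, SE, adjusted p = 0.143). Of all 12770 tested probes, 3589 in cortisol fetuses and 4324 in controls had such a p in limma's age test, in either direction. The count of 1 of 4 was no higher than that share. The median age change of the 4 genes was -0.17 in cortisol fetuses and -0.11 in controls. HSPA1A, the stress-inducible HSP70, changed by 0.49 ± 0.29 in cortisol fetuses and 0.062 ± 0.28 in controls (SE, adjusted p = 0.277 and 0.901). CRYAA, the lens crystallin related to CRYAB, changed by -0.16 ± 0.18 and -0.17 ± 0.17 (SE, adjusted p = 0.615 and 0.534). HSP90B1, HSPA8, HSPB1, CALR and PDIA3 had no named probe and were not analysed here. Under cortisol 0 of these 12 genes passed at either age, and 0 of 12 had an unadjusted p under 0.05.

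Among 785 named genes with 1 complete probe each, XBP1 was the one whose log2 values over the 27 arrays were most like those of both endoplasmic reticulum chaperones (Pearson r = 0.87 with HSPA5 and 0.89 with PDIA4). After removal of the group means it was still first, at 0.76 and 0.70. These are descriptions, across arrays that share their age groups and, for the deviations, slides. DNAJA1, a cytosolic HSP40 co-chaperone, came next for HSPA5 (r = 0.80, and 0.70 for deviations). LMNB1, a nuclear lamin, and IGFBP2, a binding protein of insulin-like growth factors, came next for PDIA4 (0.82 and 0.81), and neither was among the 3 highest once group means were removed. CRYAB was most like ENDOG, a mitochondrial nuclease (0.91), ALDOA, the glycolytic aldolase (0.89), and GATD3 (0.89). For deviations ALDOA (0.74) and ENDOG (0.72) were followed by SRP14, a subunit of the signal recognition particle (0.70). HSP90AA1 had lower likenesses, to ME1, the cytosolic malic enzyme (0.68), TCP1, a subunit of the cytosolic chaperonin (0.67), and the gap junction gene listed as CONNEXIN 43 (0.66), with TCP1 again among the first 3 for deviations (0.65).

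Markers of other cells moved with age beside these genes. Both cardiomyocyte markers rose in controls, MYH7 (OMYHCS in the files) by 0.58 ± 0.12 (SE, adjusted p = 0.00253) and MB by 0.48 ± 0.15 (SE, adjusted p = 0.0283). In cortisol fetuses 0 of 2 passed by the brighter probe of each (0.29 and 0.19), while a second MYH7 probe did (0.53, adjusted p = 0.0236). Their mean was 4.75 to 5.57 in cortisol 140 d and 5.16 to 5.55 in control 140 d, against 4.85 to 5.12 in cortisol 130 d and 4.67 to 5.08 in control 130 d. The control ages did not overlap, as for CRYAB, and 3.52% of single tested probes separated upwards in that arm. Of the markers of other cells, 1 of 5 fibroblast, 3 of 5 immune and 2 of 3 red blood cell genes fell in controls and 3 of 6 adipocyte genes rose; in cortisol fetuses 2 of 6 adipocyte genes rose. These counts take the brightest probe of each gene, and no test was made of them. For comparison, 9.37% of all tested probes passed as lower and 9.76% as higher in controls. In cortisol fetuses these shares were 8.57% and 4.81%. In cortisol fetuses a second COL3A1 probe, a fibroblast marker, also fell (-0.82, adjusted p = 0.0269), as did a second probe of the red blood cell gene AHSP (-2.37, adjusted p = 0.0365). In controls second probes of LEP (adipocyte, -0.085, adjusted p = 0.626) and HBB (red blood cell, -1.54, adjusted p = 0.0861) did not pass. Of the other COL3A1 probes 1 passed there and 1 did not (-0.535, adjusted p = 0.0941). Second probes of ITGB2, FCER1G, LYZ, AHSP, LPL and PLIN1 passed in controls. The mean of the fibroblast markers was 0.58 to 2.06 in cortisol 140 d and 0.66 to 1.30 in control 140 d, against 1.25 to 1.66 in cortisol 130 d and 1.15 to 1.71 in control 130 d. The mean of the immune markers was -3.28 to -1.65 in cortisol 140 d and -3.33 to -2.59 in control 140 d, against -2.84 to -2.04 in cortisol 130 d and -2.59 to -1.19 in control 130 d. In the same order of groups, the mean of the red blood cell markers was -2.66 to -0.62, -3.17 to -0.68, -1.3 to 0.02 and -0.97 to -0.27, and that of the adipocyte markers was -2.85 to -1.83, -3.22 to -1.19, -3.53 to -1.53 and -3.46 to -2.36. None of 4 endothelial genes and the 1 smooth muscle gene passed. The part of any of these cells in the changes of CRYAB, HSPA5, PDIA4 and HSP90AA1 was not tested.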

How the data were processed

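Total RNA was labelled with Cy3 and hybridised to 1-colour arrays, per the labels' protocols. Per the file headers, the deposited intensity of each spot had its background subtracted and was not scaled between arrays; the submitters' processing notes name Agilent Feature Extraction 10.1.1.1. The authors' deposited table holds log2 values, which equal log2 of the processed intensity minus a constant per array whose origin is not given in the sources used here (largest residual SD 2e-06); HSPA5 probe A_70_P016526 was not analysed in it. Flags for spots above background, saturation and outliers were used as deposited.

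Values were log2 intensity minus each array's 75th percentile, without outlying spots. Probes well above background on at least 6 arrays (12770 of 15008) were fitted, 2-sided, with 4 group means in limma 3.58.1 under R 4.3.3, with Benjamini-Hochberg adjustment over all of them, and the fit was tested on simulated data. Correlations used numpy 2.4.6 and permutation within groups. Symbols came from the files or the supplied sheep RefSeq table (1215 tested probes, 801 genes); the arrays number 27, which limits the precision.

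Members and gene lists were chosen with earlier results of these data known. All member probes are named; of the lists, the 3 genes per direction with the smallest p past the threshold; and for each member the 3 genes with the highest Pearson r. The named list members without a call (HSPA1A and CRYAA) and MB and MYH7 were added after their values were seen.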

Additional observations from a re-analysis of the deposited data

How the results depend on the processing

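The number of member probes passing the age test was 5 in cortisol fetuses and 4 in controls. It was 2 and 1 with normexp background correction, 2 and 2 with a shift to the array median, 2 and 2 of 4 probes in the authors' deposited table, 2 and 2 with the slide as a fixed block, 5 and 4 with the slide as a random block, and 0 and 0 within slides 2, 3 and 4. In cortisol fetuses it was 3 without a filter on dim probes and 1 with only the 2 compared groups in the fit. With 1 array left out it ranged from 2 to 5 in cortisol fetuses and from 2 to 4 in controls: it was 2 without cortisol 140 d replicate 1, 2 or 7 or cortisol 130 d replicate 3 or 4, 3 without cortisol 140 d replicate 3 or 4 or cortisol 130 d replicate 2 or 5, and in controls 2 without 140 d replicate 2, 4 or 7 or 130 d replicate 1, 3 or 5. CRYAB and PDIA4 passed in all 13 and all 14 of these fits, HSPA5 missed in 9 and 8 of 13 and in 11 and 6 of 14 by its probes, and HSP90AA1 missed in 8 of 13.

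Of 37 same-numbered pairs, 13 had correlated deviations over 0.1 (range -0.167 to 0.363), and 11 of 27 arrays matched their own number best. The numbers largely follow the slides, so this check cannot tell pairs of fetuses from arrays of a shared slide. With the replicate block 2 member probes passed in cortisol fetuses and 2 in controls, 1 probe of the whole array passed for the difference of the cortisol effect, and HSPA5 probe A_70_P016526 was -0.076 for cortisol at 130 d.

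Over all probes the count was 1709 in cortisol fetuses and 2443 in controls. It was 340 and 535 with normexp, 1, 0 and 93 within slides 2, 3 and 4 in cortisol fetuses and 3, 5 and 2 in controls. For cortisol at 140 d 1 probe passed within slide 2, and for the difference of effects 0 to 2 did with 1 array left out. Higher probes were 35.9% and 51.0% of those passing, 64.0% and 70.5% with a median shift, 64.2% and 71.3% in the authors' table, 46.4% and 55.7% with quantile normalization and 51.8% and 60.7% with normexp. Normexp moved the median of all probes to 0.20 for cortisol at 130 d and 0.15 for age in controls.

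Signs that turned were those of small differences that did not pass, and those within single slides. With normexp cortisol at 130 d was -0.149 for CRYAB, -0.02 for HSP90AA1 and -0.134 and -0.092 for HSPA5, the difference of effects was 0.081 for both HSPA5 probes, and the CRYAB to HSPA5 ratio at 130 d changed by -0.026 and -0.056. For cortisol at 130 d HSPA5 was -0.025 with the slide as a fixed block, CRYAB and HSPA5 were -0.008 and -0.055 within slide 2, HSPA5 and PDIA4 were -0.011 and -0.005 within slide 3, and HSPA5 was -0.16 within slide 4. Within slide 4, with 1 array per arm at 140 d, cortisol at 140 d was 0.42 for CRYAB, 0.61 for HSP90AA1, 0.77 and 0.95 for HSPA5 and 0.80 for PDIA4. The difference of effects there was 0.25, 0.47, 0.77, 1.11 and 0.65 in that order, and age in cortisol fetuses was 0.30 for HSP90AA1 and 0.39 and 0.57 for HSPA5. Within slide 5 cortisol at 140 d was 0.018 for CRYAB and 0.135 for PDIA4. With 1 array left out the differences that turned ranged, for cortisol at 130 d, from -0.072 to 0.123 and from -0.054 to 0.134 for HSPA5, for cortisol at 140 d from -0.164 to 0.007 for HSP90AA1 and from -0.239 to 0.028 and from -0.19 to 0.063 for HSPA5, and for the difference of effects from -0.273 to 0.008 and from -0.235 to 0.041 for HSPA5. The same alternatives were run for 5 genes of the lists after the data were seen: ATF6 was -0.12 within slide 2 in controls, and in cortisol fetuses PDIA5 was 0.18 within slide 3 and 0.027 within slide 4, and XBP1 was 0.015 within slide 4. The causes were not tested. All member probes were well above background on all 27 arrays.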
